A study of Mus musculus with 6 samples.

Results

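The genes described here encode the subunits and assembly factors of the proteasome, measured by RNA sequencing in cultured mouse podocytes after depletion of Tfeb. They were chosen by name: 47 of the 53715 genes in the deposited table are protein coding and carry a Psma, Psmb, Psmc, Psmd, Psme, Psmf or Psmg symbol followed by a digit, leaving out the inducible subunits Psmb8, Psmb9 and Psmb10. The 47 comprise 16 genes of the 20S core (8 of its alpha ring and 8 of its beta ring), 17 of the 19S regulatory particle (6 ATPases, 3 other base subunits and 8 lid subunits), 7 assembly chaperones, 5 activators, 1 inhibitor, and Psmc3ip. Psmc3ip shares the name pattern but encodes a partner of the meiotic recombinases, not a subunit.

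The groups were Tfeb siRNA (labelled TFEB knockdown) and scrambled siRNA (labelled WT), with 3 libraries each, all from an immortalized mouse podocyte line. Podocytes are the epithelial cells of the kidney's glomerular filter. Cells of both groups were expanded at 33 °C in 10% serum with interferon gamma and then differentiated at 37 °C in 5% serum and type I collagen (12 mg/ml), which took 10 to 14 days; the use of 1 line limits both groups alike. The labels do not say whether libraries of a group were grown as separate cultures. The p-values therefore describe the scatter among these 6 libraries, part or all of which may be technical. The question was the function of TFEB, a transcription factor known for activating lysosome and autophagy genes, in podocytes.

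The 26S proteasome is the cell's main machine for destroying proteins tagged with ubiquitin. Its 20S core is a barrel of stacked rings, with outer alpha rings that gate the entrance and inner beta rings that carry the proteolytic sites. The 19S particle caps the barrel, binds and removes ubiquitin, and threads the unfolded protein inward with a ring of ATPases. In many cells the transcription factor NFE2L1 (also called NRF1, from the gene Nfe2l1) is known to raise most subunit genes together when proteasome activity is short, by binding antioxidant response elements, and interferon gamma is known to swap the catalytic beta subunits for inducible ones.

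Promoter letters are shown first, because TFEB and the NFE2L1 family are each known for a DNA word. RefSeq promoters (GRCm38.p6, 250 bases before to 50 after each start) were found for 39 of the 47 genes. The others were Psma8, Psmb1, Psmb2, Psmb7, Psmc3, Psmd3, Psmd7 and Psmg2. Psmd7 and Psmb2, which had the largest log2 fold changes of the set (0.73 and 0.58), were therefore not searched. The TFEB word CACGTG was present in 3 of the 39 promoters (7.69%), against 8.09% of all 27025 genes with a promoter and 12.1% of the 8495 tested ones. The longer palindrome built around it, the CLEAR element of lysosomal genes, was in 0 of the 39, against 0.370% of all genes and 0.895% of tested genes. With shares this low, 0 of 39 tells little. The antioxidant response words TGACNNNGC and TGAGNNNGC (both strands searched for every word; matches may overlap CACGTG) were in 17 of the 39 (43.6%), against 30.8% of all genes and 35.9% of tested genes. TGACNNNGC alone was in 6 of the 39 (15.4%), against 14.0% of all genes and 17.2% of tested genes. None of those 6 genes was called, where 33.3% of all tested genes were, and 6 genes are too few to tell these apart. The windows of called genes therefore all carry the TGAG form. The CCAAT box was in 14 of the 39 (35.9%), against 41.1% of all genes and 43.4% of tested genes. A match is a description of letters and not a sign of binding. The 3 promoters with the TFEB word are given in 30-base windows, the word in capitals, 5′ to 3′ on the strand named.
Psma4 (chr9:54950707-54950736, plus strand): ttctgcacagtcCACGTGggcagactgagc
Psmd9 (chr5:123228127-123228156, plus strand): tcatctgaaaacCACGTGgtctatctagcc
Psme3 (chr11:101316157-101316186, plus strand): ggctgcgcagggCACGTGctcatcctcccc
The next windows show the antioxidant response word, again in capitals, in the genes that passed the test of the groups described below. The first 4 belong to genes that were higher after Tfeb siRNA and the last 3 to genes that were lower.
Psmd13 (chr7:140882385-140882414, plus strand): gtgccggaagTGAGCGAGCacttccgtgcg
Psmd5 (chr2:34871097-34871126, plus strand): actaagagacTGAGACCGCccaggggatca
Psma5 (chr3:108256923-108256952, minus strand): cgtcgaggagTGAGCACGCcgcgctttgga
Psmc2 (chr5:21786603-21786632, plus strand): actggagttgTGAGGGAGCggggtgaacac
Psmb3 (chr11:97703414-97703443, plus strand): gcgttgacccTGAGAAAGCcagagccggtt
Psma6, first start (chr12:55384041-55384070, minus strand): tgagagctgaTGAGGTTGCctgacctgaca
Psma6, other start (chr12:55398722-55398751, minus strand): gcactgccccTGAGTAGGCgggccctcgcg
Most of the 17 genes with the antioxidant response word were not called, and 33.3% of all tested genes were called. The word thus stood in promoters of called genes of both directions and of genes that were not called. None of the 3 genes with CACGTG passed the test, which 33.3% of all tested genes did, and Psme3 passed with the replicate number as a block (adjusted p = 0.0342).

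The libraries held 18062898 to 20010130 reads in the Tfeb siRNA group and 20143910 to 20610888 in the scrambled group, derived from the deposited FPKM, a read count scaled to gene length and library depth. The target itself, Tfeb, had 0.639, 0.714 and 0.822 FPKM with its siRNA, against 1.80, 2.05 and 2.27 FPKM with the scrambled one (log2 fold change -1.05, SE 0.13, adjusted p = 0.00148 by limma). This fold change is on log2(FPKM + 0.5), which understates changes of low genes such as Tfeb. Replicate 1 of both groups stood apart from replicates 2 and 3 on the second principal component (19.3% of the variance). Of 6 podocyte markers reported here, 3 reached a mean of 1 FPKM (Synpo, Cd2ap and Podxl) and Nphs1, Wt1 and Ptpro did not. The defining markers Nphs1 and Wt1 lay at means of 0.0651 and 0.373 FPKM in Tfeb siRNA and 0.232 and 0.504 FPKM in scrambled libraries, so the label podocyte was only partly borne out by these transcripts. Summed, these podocyte markers ran to 112 to 119 FPKM in Tfeb siRNA and 137 to 142 FPKM in scrambled libraries, and their part in the results was not tested. None of 4 endothelial markers reached 1 FPKM, while Pdgfrb of 3 mesangial, Lrp2 of 3 tubular and Cd68 of 3 leukocyte markers did, with sums that overlapped between groups. In bulk RNA, fewer cells of a type and less RNA per cell cannot be told apart.

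As a set, the proteasome genes differed little between the groups, and not in one direction. Groups were compared with limma on log2(FPKM + 0.5), across 12257 genes whose mean reached 1 FPKM, and a change counted as called when its Benjamini-Hochberg adjusted p was below 0.05. The filter kept 45 of the 47 genes. After Tfeb siRNA 9 of the 45 were higher, 3 were lower and 33 did not pass, together 26.7% called, where 33.3% of all tested genes were called (16.9% higher and 16.4% lower). The median log2 fold change was -0.0079, against 0.015 over all tested genes, and the median size of change regardless of sign was 0.12, against 0.19. The values of the groups did not overlap for 14 genes that lay higher and 6 that lay lower in Tfeb siRNA, 20 of 45, where 48.7% of all tested genes did not overlap (25.3% higher and 23.5% lower). With the replicate number as a block, 12 were higher and 4 lower, where 40.2% of all tested genes were called. Without replicate 1 of both groups, 6 were higher and 1 lower (15.6%), where 24.6% of all tested genes were called.

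**Figure D1:**
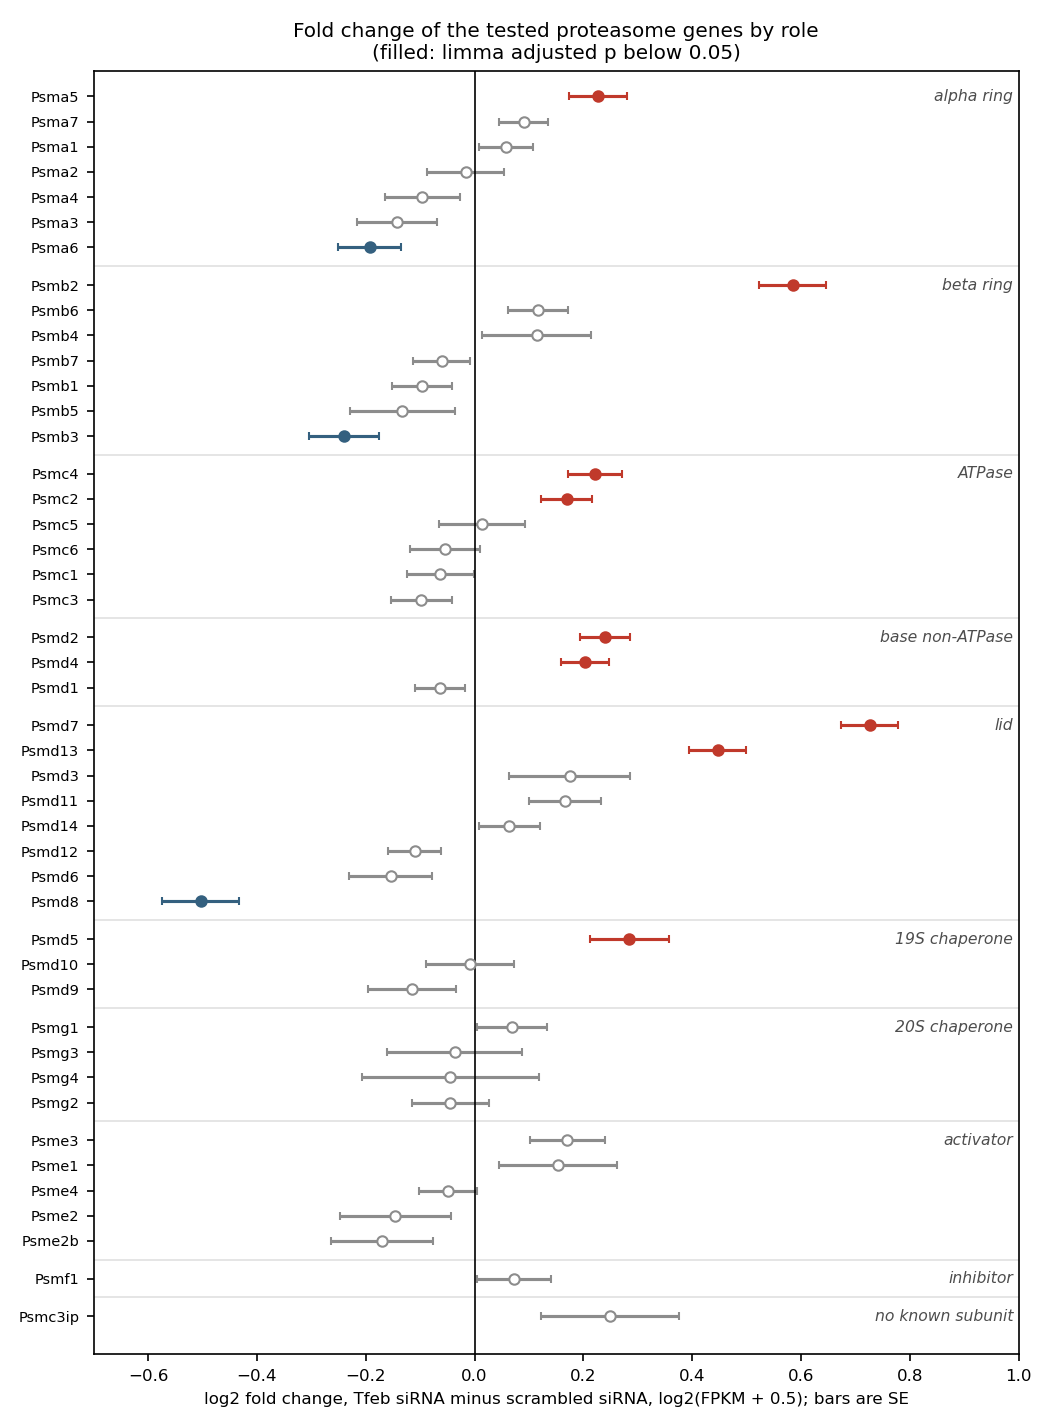
Log2 fold change (Tfeb siRNA minus scrambled siRNA, on log2(FPKM + 0.5)) of the 45 tested proteasome genes, grouped by role, with SE bars; filled points passed the limma test, red higher and blue lower. Changes run between -0.50 (Psmd8) and 0.73 (Psmd7), both of them lid subunits, and most points lie near 0.

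Summed levels of the particles were close in the groups. Summed over the 14 tested core genes, the level was 665, 679 and 726 FPKM in Tfeb siRNA replicates 1, 2 and 3, against 679.7, 674 and 702 FPKM in scrambled replicates. Summed over the 17 genes of the 19S particle it was 880.1, 848 and 895 FPKM in Tfeb siRNA, against 845, 834 and 848 FPKM in scrambled libraries. Both sums overlapped between groups, and the ratio of the 19S to the 20S sum was 1.27 ± 0.0487 in Tfeb siRNA and 1.23 ± 0.0191 in scrambled libraries (SD, n = 3). All 47 genes together took 0.455% to 0.467% of the reads in Tfeb siRNA and 0.448% to 0.465% in scrambled libraries. By role, the sum over Psmd1, Psmd2 and Psmd4 did not overlap between groups, at 179 ± 2.25 FPKM in Tfeb siRNA and 157 ± 1.96 FPKM in scrambled libraries; those of the alpha ring, beta ring, ATPases and lid did.

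**Figure D2:**
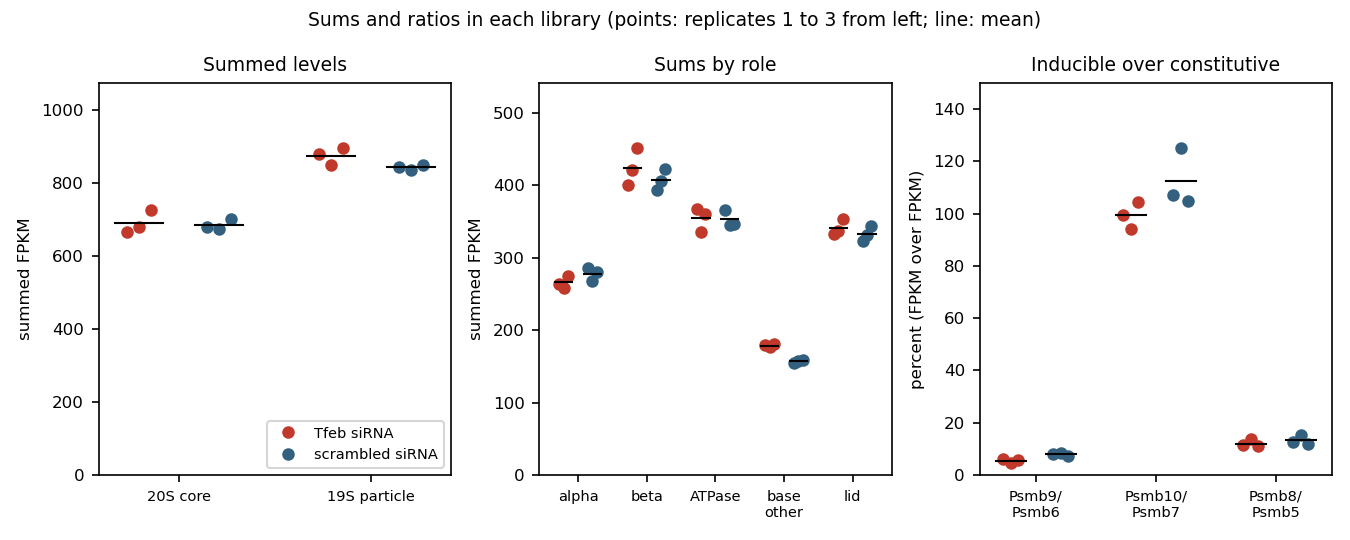
Summed FPKM of the 20S core and 19S particle, sums by role, and the FPKM of each inducible catalytic subunit as a percentage of its constitutive counterpart, in each of 3 Tfeb siRNA (red, left) and 3 scrambled siRNA (blue, right) libraries; the line is the mean. Sums of the core lie at 665 to 726 in Tfeb siRNA and 674 to 702 in scrambled libraries, and Psmb9 over Psmb6 is lower in all 3 Tfeb siRNA libraries. The percentages use deposited gene lengths, which set part of their size.

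In the alpha ring, 1 of the 7 tested genes rose, 1 fell and 5 did not pass, where 33.3% of all tested genes were called. Here and below, each role holds too few genes to tell its share from that one. Psma5 had 17.9, 17.3 and 18.4 FPKM in Tfeb siRNA replicates 1, 2 and 3, against 14.6, 15.5 and 15.5 FPKM in scrambled replicates. Every Tfeb siRNA library was above every scrambled one, a 1.18-fold difference of means (log2 fold change 0.23, SE 0.05, adjusted p = 0.0164). About 49.96% of the 50-base words of Psma5 recur in other genes, mainly the processed pseudogenes Gm8394 and Gm12989, so its reads are uncertain; Gm8394 was also higher (31.5 ± 1.52 FPKM in Tfeb siRNA and 24.98 ± 1.26 FPKM in scrambled libraries, adjusted p = 0.00666). The call of Psma5 was lost without Tfeb siRNA replicate 3 (adjusted p = 0.0554), without replicate 1 of both groups (0.0726) and with limma-voom (0.0507). Psma6, the most abundant alpha subunit per deposited length, had 93.0, 94.7 and 98.8 FPKM in Tfeb siRNA, against 114, 103 and 111 FPKM in scrambled libraries. The groups did not overlap, with a log2 fold change of -0.19 (SE 0.06, adjusted p = 0.0398), but the call was lost without any single library other than scrambled replicate 2 (adjusted p 0.0593 to 0.121, the highest without scrambled replicate 3). The other alpha genes ran between a log2 fold change of -0.14 (Psma3) and 0.09 (Psma7). Psma7 was above every scrambled library in all 3 Tfeb siRNA libraries (40.1 to 41.5 against 37.5 to 39.1 FPKM) and did not pass (adjusted p = 0.169). Psma8, the germline counterpart of Psma7, had 3 reads in the Tfeb siRNA and 1 in the scrambled group and was not tested.

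In the beta ring the counts were the same: 1 of 7 rose, 1 fell and 5 did not pass, beside 33.3% called of all tested genes. Psmb2, a beta subunit without a catalytic site (ENSMUSG00000028837, chromosome 4, 126677630 to 126709714, plus strand, mm10), had 78.4, 88.2 and 86.3 FPKM in Tfeb siRNA replicates 1, 2 and 3, against 53.7, 58.0 and 56.2 FPKM in scrambled replicates. Its lowest Tfeb siRNA library lay far above its highest scrambled one, with means that differed 1.51-fold (log2 fold change 0.58, SE 0.06, adjusted p = 0.000951). This call held without any single library (adjusted p up to 0.00611), and none of its 50-base words recurs in another annotated gene. Psmb3, another non-catalytic subunit, had 25.6, 27.8 and 28.3 FPKM in Tfeb siRNA, against 34.2, 30.6 and 32.0 FPKM in scrambled libraries. All 3 Tfeb siRNA values were below the scrambled ones (log2 fold change -0.24, SE 0.06, adjusted p = 0.0265), and 17.8% of its words recur in pseudogenes. The call of Psmb3 was lost without Tfeb siRNA replicate 1 or 2 or scrambled replicate 1 or 3 (adjusted p 0.0559 to 0.0756).

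The constitutive catalytic subunits are Psmb6, Psmb7 and Psmb5, and none of them passed, where 33.3% of all tested genes did. Psmb6 had 39.0, 38.2 and 42.0 FPKM in Tfeb siRNA, against 37.5, 36.7 and 35.6 FPKM in scrambled libraries (log2 fold change 0.12, SE 0.05, adjusted p = 0.145). Psmb7 had 32.8, 31.7 and 33.6 FPKM in Tfeb siRNA, against 35.7, 33.1 and 33.6 FPKM in scrambled libraries (adjusted p = 0.412). Psmb5 had 77.9, 83.0 and 95.9 FPKM in Tfeb siRNA, against 86.6, 91.8 and 103 FPKM in scrambled libraries, a log2 fold change of -0.13 (SE 0.10, adjusted p = 0.325). Each Tfeb siRNA library lay below the scrambled library of its number although the groups overlapped, and with the replicate number as a block the adjusted p was 0.0469. Of the words of Psmb5, 54.1% recur elsewhere, chiefly in the pseudogene Gm3375. Psmb11, known from the thymus, had 6 reads in each group.

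The inducible subunits, which stand outside the 47, lay lower in Tfeb siRNA but did not pass. Psmb9 had 2.39, 1.81 and 2.43 FPKM in Tfeb siRNA, against 2.98, 3.08 and 2.57 FPKM in scrambled libraries (log2 fold change -0.32, SE 0.12, adjusted p = 0.0837). Psmb10 had 32.7, 29.7 and 35.2 FPKM in Tfeb siRNA, against 38.2, 41.4 and 35.3 FPKM in scrambled libraries (adjusted p = 0.0700), and passed on TPM (0.0430) and with limma-voom (0.0380). Psmb9 and Psmb10 had groups that did not overlap, as did 48.7% of all tested genes, and for Psmb10 the gap was narrow. Psmb8 had 8.91, 11.3 and 10.6 FPKM in Tfeb siRNA, against 10.8, 14.2 and 12.1 FPKM in scrambled libraries (log2 fold change -0.25, adjusted p = 0.146), and passed with the replicate number as a block (adjusted p = 0.0141). Set against their constitutive counterparts per deposited length, Psmb9 was 5.55% ± 0.726 of Psmb6 in Tfeb siRNA and 7.85% ± 0.577 in scrambled libraries (SD, n = 3). Psmb10 was 99.4% ± 5.33 of Psmb7 in Tfeb siRNA and 112% ± 11.0 in scrambled libraries, and Psmb8 was 12.0% ± 1.36 of Psmb5 in Tfeb siRNA and 13.2% ± 1.96 in scrambled libraries. The first 2 ratios did not overlap between groups and the last did. For Psmb10 over Psmb7 the gap was narrow, between 104.6% in Tfeb siRNA replicate 3 and 104.9% in scrambled replicate 3. The deposited length was 2.95 times the principal transcript in GENCODE M21 for Psmb7 and 1.30 times for Psmb10. Part of the size of that percentage thus comes from the lengths used.

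Of the 6 ATPases of the 19S base, which unfold the substrate, 2 rose and 4 did not pass (33.3% of all tested genes passed). Psmc4 had 56.8, 55.9 and 60.4 FPKM in Tfeb siRNA, against 49.2, 50.2 and 48.9 FPKM in scrambled libraries. It was higher in 3 of 3 libraries, 1.17-fold (log2 fold change 0.22, SE 0.05, adjusted p = 0.0147), and lost its call without scrambled replicate 3 (adjusted p = 0.0574). Psmc2 had 28.1, 27.3 and 29.2 FPKM in Tfeb siRNA, against 24.9, 25.04 and 25.1 FPKM in scrambled libraries. Here the scrambled libraries were almost level (SD 0.113 FPKM), and the call (log2 fold change 0.17, SE 0.05, adjusted p = 0.0317) was lost without any single library other than Tfeb siRNA replicate 2 (adjusted p 0.0704 to 0.0974). Psmc1, the most abundant ATPase per deposited length, had 98.2, 87.0 and 95.8 FPKM in Tfeb siRNA, against 99.6, 94.4 and 99.2 FPKM in scrambled libraries. With Psmc3, Psmc5 and Psmc6 it had log2 fold changes between -0.10 and 0.01 with overlapping groups.

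Among the other base subunits, Psmd2 and Psmd4 rose and Psmd1 did not pass. Psmd2 offers docking sites to ubiquitin-like proteins and had the most reads of all 47 genes (24015 in the Tfeb siRNA and 22071 in the scrambled group). It had 104, 101 and 105 FPKM in Tfeb siRNA, against 86.4, 88.3 and 87.95 FPKM in scrambled libraries. The groups lay well apart for a 1.18-fold difference (log2 fold change 0.24, SE 0.05, adjusted p = 0.00765), and 17.8% of its words recur in pseudogenes. Psmd4, a ubiquitin receptor, had 49.5, 50.4 and 50.4 FPKM in Tfeb siRNA, against 42.8, 43.1 and 44.5 FPKM in scrambled libraries. This difference was 1.153-fold with no overlap (log2 fold change 0.20, SE 0.04, adjusted p = 0.0132). Both calls held without each single library (adjusted p up to 0.0328 for Psmd2 and 0.0460 for Psmd4). Psmd1, the large scaffold of the base, had 25.7, 24.7 and 24.9 FPKM in Tfeb siRNA, against 25.9, 26.6 and 26.3 FPKM in scrambled libraries, without overlap but by little (log2 fold change -0.06, adjusted p = 0.317).

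The lid, which removes ubiquitin chains, held the extremes in both directions. Of its subunits 2 rose, 1 fell and 5 did not pass, where 33.3% of all tested genes were called. Psmd7, the inactive partner of the deubiquitinase Psmd14 (ENSMUSG00000039067, chromosome 8, 107580381 to 107588464, minus strand, mm10), had 77.6, 73.6 and 74.3 FPKM in Tfeb siRNA replicates 1, 2 and 3, against 44.9, 47.2 and 43.7 FPKM in scrambled replicates. Every Tfeb siRNA library was far above every scrambled one, with means that differed 1.66-fold (log2 fold change 0.73, SE 0.05, adjusted p = 0.000311). Psmd13, a structural lid subunit (ENSMUSG00000025487, chromosome 7, 140881968 to 140898643, plus strand), had 30.7, 32.6 and 32.7 FPKM in Tfeb siRNA, against 22.7, 24.2 and 23.1 FPKM in scrambled libraries. It rose 1.37-fold with no overlap (log2 fold change 0.45, SE 0.05, adjusted p = 0.00124). Its exons overlap those of Sirt3 on the opposite strand, and the use of strand in counting is not given in the sources used here; Sirt3 had 1.28 ± 0.290 FPKM in Tfeb siRNA and 1.13 ± 0.203 FPKM in scrambled libraries.

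Psmd8, whose yeast counterpart joins the lid last (ENSMUSG00000030591, chromosome 7, 29174188 to 29180701, minus strand), went the other way. It had 61.8, 64.3 and 69.97 FPKM in Tfeb siRNA replicates 1, 2 and 3, against 87.8, 91.1 and 99.5 FPKM in scrambled replicates. All 3 Tfeb siRNA values were below the scrambled ones, with a mean of 65.3 ± 4.199 FPKM in Tfeb siRNA against 92.8 ± 6.04 FPKM in scrambled libraries (log2 fold change -0.50, SE 0.07, adjusted p = 0.00241). The calls of Psmd7, Psmd13 and Psmd8 held in each of the 14 alternatives (adjusted p up to 0.00525, 0.00798 and 0.0117). No 50-base word of Psmd7 or Psmd8 recurs in another annotated gene. Psmd14 itself had 42.6, 39.8 and 43.99 FPKM in Tfeb siRNA, against 41.7, 39.6 and 39.4 FPKM in scrambled libraries, with groups that overlapped (log2 fold change 0.06, SE 0.06, adjusted p = 0.422). Psmd3 and Psmd11 had log2 fold changes of 0.17 each and passed only with the replicate number as a block (adjusted p 0.265 without and 0.0252 with the block for Psmd3, and 0.0966 and 0.0480 for Psmd11). Psmd11, the least abundant lid gene, had 8.06, 8.87 and 8.15 FPKM in Tfeb siRNA, against 6.94, 7.78 and 7.47 FPKM in scrambled libraries, without overlap. Psmd6 and Psmd12 had -0.15 and -0.11 and did not pass.

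**Figure D3:**
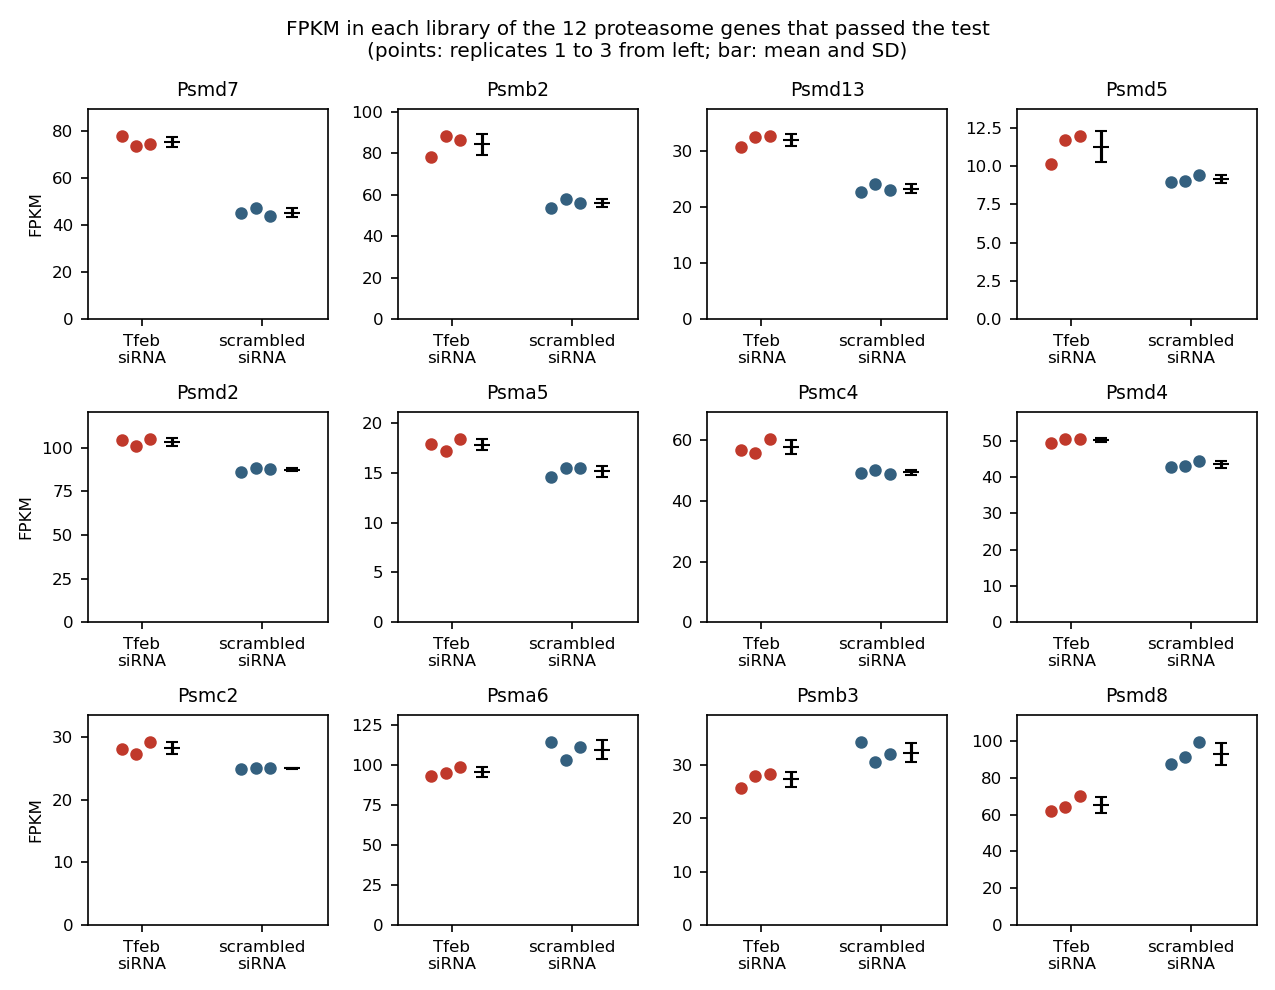
FPKM in each library of the 12 proteasome genes that passed the limma test, ordered by fold change; red points on the left are Tfeb siRNA and blue points on the right scrambled siRNA replicates 1 to 3, with mean and SD beside them and axes starting at 0. The groups do not overlap in any panel, which choosing genes by that test on the same libraries favours (48.7% of all tested genes do not overlap). The gap is widest for Psmd7 (73.6 to 77.6 against 43.7 to 47.2 FPKM).

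Of the 7 assembly chaperones 1 rose and 6 did not pass, where 33.3% of all tested genes were called. Psmd5, which is known to hold the ATPase Psmc2 during assembly of the base, had 10.1, 11.7 and 11.9 FPKM in Tfeb siRNA, against 8.93, 9.05 and 9.43 FPKM in scrambled libraries. The groups did not overlap (log2 fold change 0.28, SE 0.07, adjusted p = 0.0231), but the call was lost without any single library other than Tfeb siRNA replicate 1 (adjusted p 0.0513 to 0.0748). Psmd10, the most abundant base chaperone, had 30.3, 26.4 and 28.5 FPKM in Tfeb siRNA, against 31.0, 26.0 and 28.8 FPKM in scrambled libraries (log2 fold change -0.0079). Psmd9 had 3.61, 4.27 and 3.74 FPKM in Tfeb siRNA, against 4.44, 4.05 and 4.19 FPKM in scrambled libraries (log2 fold change -0.11). The core chaperones Psmg1, Psmg2, Psmg3 and Psmg4, which pair up to build the alpha ring, lay between -0.04 and 0.07 with adjusted p of 0.450 to 0.857. Of these, Psmg2 had 19.8, 18.6 and 20.1 FPKM in Tfeb siRNA, against 22.0, 19.6 and 18.9 FPKM in scrambled libraries, and Psmg3 had 1.73, 2.36 and 2.13 FPKM in Tfeb siRNA, against 2.06, 2.39 and 1.95 FPKM in scrambled libraries. Pomp, the chaperone of the beta ring, carries another symbol; it fell to 13.5, 13.5 and 14.9 FPKM in Tfeb siRNA, against 16.1, 16.5 and 16.4 FPKM in scrambled libraries (log2 fold change -0.22, SE 0.06, adjusted p = 0.0233), a call lost without Tfeb siRNA replicate 1 or 2 or scrambled replicate 2 or 3 (adjusted p 0.0683 to 0.0731).

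None of the 5 activators passed, nor did the inhibitor Psmf1, where 33.3% of all tested genes passed. These are too few genes to tell that apart. Psme3, the nuclear activator, had 53.3, 54.4 and 57.0 FPKM in Tfeb siRNA, against 44.6, 49.6 and 52.2 FPKM in scrambled libraries. These groups did not overlap (log2 fold change 0.17, SE 0.07, adjusted p = 0.0980). Psme3 did pass with the replicate number as a block (adjusted p = 0.0342). Psme1, a subunit of the interferon-inducible activator, had 11.9 to 13.6 FPKM in Tfeb siRNA and 10.4 to 13.7 FPKM in scrambled libraries (adjusted p = 0.317). Psme2, its partner, had 5.37, 4.003 and 4.72 FPKM in Tfeb siRNA, against 5.25, 5.40 and 5.02 FPKM in scrambled libraries, while its intronless copy Psme2b was listed at 98.1, 90.03 and 95.8 FPKM in Tfeb siRNA, against 123, 98.5 and 99.6 FPKM in scrambled libraries (adjusted p = 0.204). Psme2b shares 69.3% of its 50-base words with other genes, mainly Psme2, which leaves the level of each uncertain. Psme4, the large activator of the nucleus, and Psmf1 had log2 fold changes of -0.05 and 0.07; Psmf1 had 6.68, 7.31 and 7.10 FPKM in Tfeb siRNA, against 6.72, 6.21 and 7.05 FPKM in scrambled libraries. Psmc3ip had 2.94, 2.61 and 2.56 FPKM in Tfeb siRNA, against 2.38, 2.50 and 1.76 FPKM in scrambled libraries (log2 fold change 0.25, SE 0.13, adjusted p = 0.175), and shares exon sequence with Mlx on the opposite strand, which had 5.09 ± 0.993 FPKM in Tfeb siRNA and 7.94 ± 0.934 FPKM in scrambled libraries.

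Subunits that occur in equal numbers in the particle were not listed at equal transcript levels. Mean FPKM over the 6 libraries ran between 16.5 (Psma5) and 102 (Psma6) in the core, a 6.20-fold range, and between 7.88 (Psmd11) and 95.7 (Psmc1) in the 19S particle, a 12.1-fold range. The lowest tested gene of the 45 was Psmg3 at 2.10 FPKM, on 347 reads in the Tfeb siRNA and 385 in the scrambled group. The deposited gene length sets part of this order. For Psma7 it was 3072 bases, 3.36 times the 914 bases of the principal transcript in GENCODE M21, and for Psmb1 it was 0.589 times that transcript. Scaled to principal transcript lengths, the ATPases ranged 1.65-fold among themselves, against 3.59-fold per deposited length, and the beta ring 2.27-fold, against 3.01-fold. The alpha ring had a 7.52-fold range on that scale. The ratio of a gene's group means does not depend on its length.

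**Figure D4:**
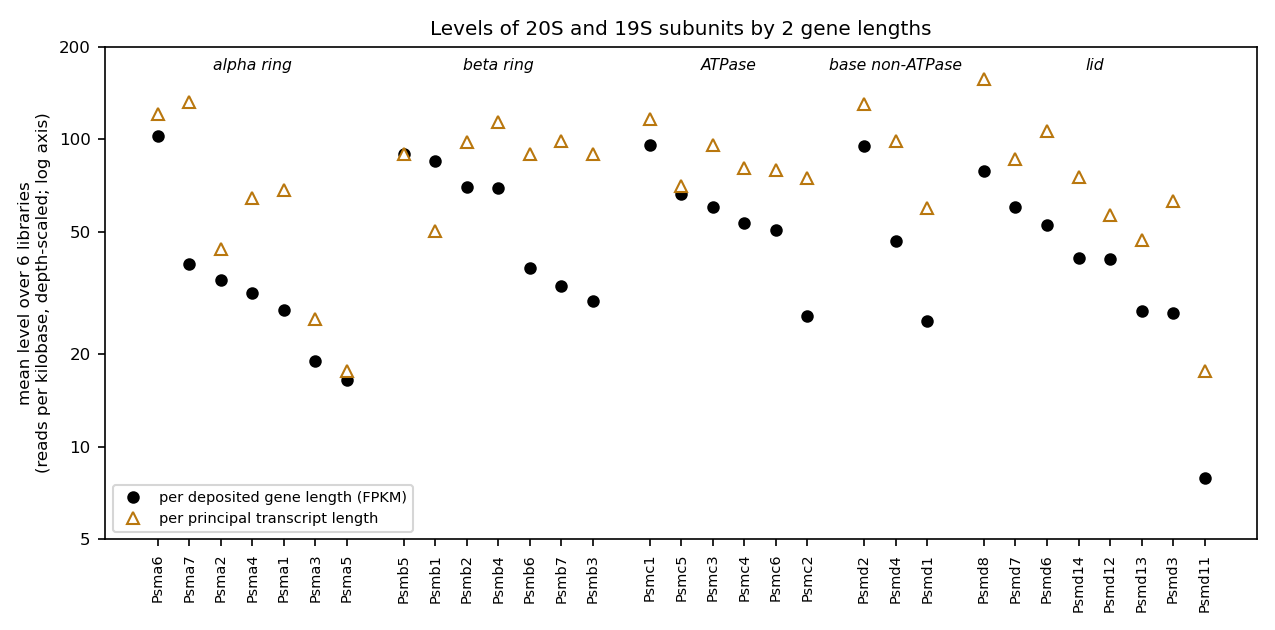
Mean level over the 6 libraries of the tested 20S and 19S subunits on a log axis, per deposited gene length (black points, FPKM) and per principal transcript length (open triangles). The ATPases draw together on the second scale (a 1.65-fold range, against 3.59-fold), while Psma3 and Psma5 in the alpha ring and Psmd11 in the lid remain low on both.

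Of 37 other genes of the pathway (inducible subunits, subunits and chaperones under other symbols, bound enzymes, regulators, shuttle factors, ubiquitin genes and partners of the segregase Vcp), 7 rose, 5 fell and 25 did not pass, 32.4% called against 33.3% of all tested genes. Nfe2l1, the regulator named above, had 65.6, 64.7 and 68.5 FPKM in Tfeb siRNA, against 61.2, 65.2 and 61.98 FPKM in scrambled libraries, with groups that overlapped (log2 fold change 0.08, SE 0.05, adjusted p = 0.282). Of the 7 regulators on that list, 2 rose, 2 fell and 3 did not pass. Those that rose were Nfe2l2, given below, and Sel1l (log2 fold change 0.30, SE 0.06, adjusted p = 0.0110). Those that fell, Ngly1 and Ddi2, encode enzymes known to process the NFE2L1 protein. Ngly1, which removes its sugar chains, had 4.50, 3.99 and 4.30 FPKM in Tfeb siRNA, against 5.53, 5.50 and 5.50 FPKM in scrambled libraries (log2 fold change -0.34, SE 0.06, adjusted p = 0.00789). Ddi2, the protease that cleaves it, had 5.92, 5.75 and 5.28 FPKM in Tfeb siRNA, against 7.02, 6.57 and 6.45 FPKM in scrambled libraries (log2 fold change -0.22, SE 0.07, adjusted p = 0.0384), a call lost without each single library in turn (adjusted p 0.0501 to 0.107). Nfe2l2, the related factor of the antioxidant response, had 35.3, 30.9 and 34.8 FPKM in Tfeb siRNA, against 23.0, 22.0 and 21.9 FPKM in scrambled libraries, higher in all 3 (log2 fold change 0.58, SE 0.06, adjusted p = 0.00102).

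Other members of that list moved both ways. Ube3c, a ubiquitin ligase bound to the proteasome, had 15.4, 14.5 and 15.3 FPKM in Tfeb siRNA, against 11.2, 11.5 and 11.1 FPKM in scrambled libraries (log2 fold change 0.41, SE 0.05, adjusted p = 0.00151). Zfand5, a proteasome-binding zinc finger protein, had 17.1, 19.8 and 21.6 FPKM in Tfeb siRNA, against 13.4, 15.1 and 16.3 FPKM in scrambled libraries (log2 fold change 0.37, adjusted p = 0.0319). Its call was lost without Tfeb siRNA replicate 2 or 3 or scrambled replicate 1 or 2 (adjusted p 0.0707 to 0.0913). Zfand2a, an arsenite-inducible relative, was lower in all 3 libraries, at 22.1, 19.8 and 19.6 FPKM in Tfeb siRNA, against 30.2, 26.1 and 29.98 FPKM in scrambled libraries (log2 fold change -0.48, SE 0.08, adjusted p = 0.00430). Nsfl1c, a cofactor of Vcp, had 8.58, 8.14 and 8.36 FPKM in Tfeb siRNA, against 12.4, 11.8 and 11.3 FPKM in scrambled libraries (log2 fold change -0.48, SE 0.06, adjusted p = 0.00126). Among the subunits under other symbols, the ubiquitin receptor Adrm1 had 15.5 to 18.2 FPKM in Tfeb siRNA and 13.6 to 17.9 FPKM in scrambled libraries (adjusted p = 0.650). Sem1, the small lid subunit, had 20.7 to 22.4 FPKM in Tfeb siRNA and 21.2 to 25.6 FPKM in scrambled libraries (adjusted p = 0.513).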

How the data were processed

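RNA of 6 libraries was sequenced. The authors deposited FPKM values in 1 table, which also lists coordinates and gene lengths according to its header. Per the submitters' processing notes the build is mm10; the sources used here name no aligner, counter, annotation release or strand setting. No sample column was unused (0). Multiplied by gene length, 100% of the deposited FPKM values above 0 were whole multiples of 1 step per library (tolerance 1e-06), which gave reads; the depth the authors divided by was the median-ratio size factor times a constant. Reads cover counting error only.

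Groups were compared with limma 3.58.1 (R 4.3.3) on log2(FPKM + 0.5), eBayes with trend, two-sided, Benjamini-Hochberg adjustment over the 12257 genes with mean FPKM of 1 or more; fold changes on this scale understate changes of low genes. The code was tested on simulated data. Members, lists and promoter words were chosen with earlier results of these data known. Library values were to be given for called members, the most and least abundant member of each role, and, of the pathway, the 3 largest called changes each way with 8 set genes; others (Psma7, Psmb6, Psmb7, Psmd14, Psme1, Psme3) were added after their values were seen. Promoters came from RefSeq. Some marker genes are not reported here. Residuals of same-numbered libraries correlated at 0.382, 0.129 and 0.166 (differently numbered pairs -0.239 to 0.106, the highest Tfeb siRNA replicate 2 with scrambled replicate 3), so only replicate 1 was clearly paired; a replicate block was tried, and this pairing comes from the data, since titles only number the samples. Libraries differed beyond sampling noise (chi-square per gene 4.70 or more). Shared words and overlaps came from GENCODE M21.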

Additional observations from a re-analysis of the deposited data

How the results depend on the processing

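The 14 alternatives were other pseudocounts (0.1, 1), no filter, TPM, TMM scaling, the replicate block, each library left out, and, added after the data were seen, limma-voom on derived reads and leaving out replicate 1 of both groups. No called proteasome gene changed direction under any of them, and 6 of 12 were called in all 14 (Psmd7, Psmb2, Psmd13, Psmd8, Psmd2 and Psmd4). With the replicate block 12 members were higher and 4 lower, and all 12 calls were kept; across all genes 2542 were higher and 2386 lower. Without single libraries 6 to 8 members were higher and 1 to 3 lower (core, 1 to 2 higher and 0 to 2 lower; 19S particle, 4 to 6 higher and 1 lower); over all genes 1412 to 1703 were higher and 1371 to 1720 lower. Without replicate 1 of both groups 6 members were higher and 1 lower (core, 1 and 0; all genes, 1480 and 1533), the lost calls being Psma6 (adjusted p 0.172), Psmb3 (0.104), Psmc2 (0.0991), Psma5 (0.0726) and Psmc4 (0.0527). On TPM the call of Psmc2 was lost (0.0638), and with no filter those of Psma6, Psmb3 and Psmd5. With no filter 1 member was lower and 0 in the core. That alternative tests more genes and also fits the eBayes trend over all of them. With limma-voom 1 core gene was higher. The cause of the changes under these alternatives was not tested. The ratio of 19S to 20S sums was 1.24 to 1.29 in Tfeb siRNA and 1.22 to 1.24 in scrambled libraries when single libraries were left out. The planned count-model tests were not run, because the deposited unit was FPKM. Short or little-expressed genes such as Psmg3 and Psmg4 rest on few reads, which limits what could be called.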
